A study of Mus musculus with 16 samples.

Results

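Complexes II to V of the respiratory chain and ATP synthase were described here at the level of their nuclear gene transcripts in mouse hippocampus. The genes were those whose array annotation gave the single symbol Sdha, Sdhb, Sdhc, Sdhd, Cyc1 or Cycs, or a symbol beginning with Uqcr, Cox4 to Cox8 or Atp5. This gave 48 of 18193 genes with a single symbol: 4 of complex II, 9 of complex III with Cyc1 counted there, cytochrome c, 17 of complex IV and 17 of complex V. Each gene was read from the probe set with the highest mean over 16 arrays. Of the 48 genes, 45 lay above the filter on low values and were tested. The other 3, Cox4i2, Cox7b2 and Cox8c, averaged 1.76, 2.96 and 2.30 log2 units, below the filter at 3.584 log2 units.

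Hippocampal RNA came from 8 animals fed a pioglitazone (PIO) diet and 8 animals fed a control diet, with 1 Affymetrix array per animal. All 16 were 14-month-old female 3xTg-AD mice, so both groups carried the same mutations, among them human APP and tau transgenes driven by a Thy1 promoter and expressed mainly in neurons. Mice without these mutations were not analysed here. The diets began at 10 months of age and lasted some 14 weeks, and the PIO diet held 84 ppm of the drug, a daily dose near 18 mg per kg. The drug, a thiazolidinedione, activates the nuclear receptor PPAR gamma, and the comparison asked which hippocampal transcripts differed with the diet.

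Complex II, succinate dehydrogenase, feeds electrons from the tricarboxylic acid cycle to ubiquinone. Complex III passes them to cytochrome c, complex IV hands them to oxygen, and complex V uses the resulting proton gradient to make ATP. Neurons depend on this chain for the ATP that ion pumping and synaptic transmission consume. A few subunits of complexes III, IV and V are encoded in mitochondrial DNA and are not among these genes. Several complex IV subunits exist as isoform pairs, with one form in most tissues and another in heart, skeletal muscle, lung or testis.

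Neuron markers were present in every animal, with a list mean of 13.60 to 13.76 log2 units in PIO animals and 13.61 to 13.78 log2 units in control animals. Of 9 hippocampal excitatory neuron markers 8 had lower PIO means, with a median difference of -0.16 log2 units, and the list mean was 9.63 and 9.54 log2 units in PIO animals 14 and 15, against 10.06 to 10.47 in control animals. Thalamic and habenular markers were highest in PIO animal 16, at 9.34 log2 units, against 8.17 to 8.45 in control animals. The tissue makeup differed between animals in other ways. The mean of 10 choroid plexus markers was 8.65 to 10.73 log2 units in 6 PIO and 4 control animals, and 4.67 to 5.87 log2 units in 2 PIO and 4 control animals. Striatal markers were highest in PIO animals 15 and 14, at 9.78 and 9.61 log2 units, and the mean of the list was 8.28 to 9.11 log2 units in control animals. All 13 myelin markers and all 9 microglial markers had lower PIO than control means, with median differences of -0.22 and -0.18 log2 units. At an unadjusted p under 0.05 in limma, 7 of the 13 and 3 of the 9 were lower, against 3.15% of all genes. Of 9 astrocyte markers 7 were lower, 3 of them at that level. Of 8 parvalbumin interneuron markers 5 were lower, 2 of them at that level. Fits with the mean of the myelin, striatal, choroid or neuron markers as a covariate are given after the complexes, and the part of the other lists was not tested. In whole tissue, fewer cells of a type and less RNA per cell cannot be told apart.

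Promoter sequence was not used in choosing these genes, and NRF1, a transcription factor, is known to bind the promoters of many respiratory chain genes. RefSeq start sites (GRCm38.p6) gave windows of 250 bases before to 50 after the start for 36 of the 48 genes. The NRF1 core GCATGCGC stood on either strand in 8 of the 36 (22.2%), Sdhb, Uqcr11, Uqcrc1, Cycs, Cox6a1, Atp5g2, Atp5k and Atp5l, against 3.94% of 17492 protein-coding genes. The longer core CGCATGCGC, which contains the shorter one, stood in 7 of the 36 (19.4%), against 2.61% of coding genes. The GABPA core CCGGAAGT was present in 4 genes (11.1%, against 5.69%), the YY1 core AAGATGGC in 3 (8.33%, against 3.57%) and the ERR core TCAAGGTCA in 2 (5.56%, against 0.377%). These letters were searched on both strands and do not show binding. Stretches of 100 bases upstream of the start are shown for 1 holder from each of complexes II, IV and V and for cytochrome c, with the NRF1 core in capitals, and for Cox8b, the gene with the widest spread between animals, which held none of the motifs.
Sdhb (chr4:140961171-140961270, plus strand): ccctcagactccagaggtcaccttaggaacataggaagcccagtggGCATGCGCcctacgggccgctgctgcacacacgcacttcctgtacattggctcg
Cycs (chr6:50566576-50566675, minus strand): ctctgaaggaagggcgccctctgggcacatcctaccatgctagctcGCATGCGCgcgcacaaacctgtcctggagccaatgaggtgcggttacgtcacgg
Cox6a1 (chr5:115349067-115349166, minus strand): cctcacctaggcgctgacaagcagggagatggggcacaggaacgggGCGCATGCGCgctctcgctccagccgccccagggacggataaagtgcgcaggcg
Atp5g2 (chr15:102671048-102671147, minus strand): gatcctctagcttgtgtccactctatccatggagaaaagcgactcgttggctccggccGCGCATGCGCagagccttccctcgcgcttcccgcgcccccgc
Cox8b (chr7:140900447-140900546, minus strand): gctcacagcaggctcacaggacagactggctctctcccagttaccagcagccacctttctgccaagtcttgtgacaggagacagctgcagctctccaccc
In Cox6a1 and Atp5g2 the 10 capitals hold the core on both strands, overlapping. Counted from the start site, the first base of the core lay at -54 in Sdhb, -60 in Cycs, -160 in Cox6a1 and -40 in Atp5g2. The Cox8b window had a GC content of 48.3%. The windows of the 36 genes ran from 43.3% to 77.0%, with a median of 56.7%, and the median over those of coding genes was 56.3%.

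No gene of complexes II to V passed the test between PIO and control animals. With limma and Benjamini-Hochberg adjustment over 12266 genes, 0% of all genes were called at an adjusted p of 0.05, and the smallest adjusted p of any gene was 0.457. At an unadjusted p under 0.05, 3.15% of all genes were lower and 3.86% were higher with PIO (386 and 473 genes), and 0 of the 45 tested genes stood in either set. On the probe sets used, the smallest p among them was 0.069, for Cox7a2l. PIO and control values overlapped in all 45, and the groups did not overlap in 0.0326% of all genes.

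The differences were small on the log2 scale and leaned to lower PIO means. Of the 45 genes, 29 had a PIO mean below the control mean, against 47.3% of all genes tested, and the median difference was -0.025 log2 units, against 0.0045 over all genes. Much of the description below concerns the 40 genes whose probe set averaged above 10 log2 units, a level chosen after the values were seen. Of these, 28 (70%) were lower with PIO, against 50.4% of the 4783 genes above that level. Their differences ran from -0.087 to 0.064 log2 units, and the 95% intervals of all 40 lay between -0.25 and 0.19 log2 units, or 0.840- and 1.14-fold. Single signs are not independent, since genes of 1 animal vary together, and no test was made over the group.

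**Figure D1:**
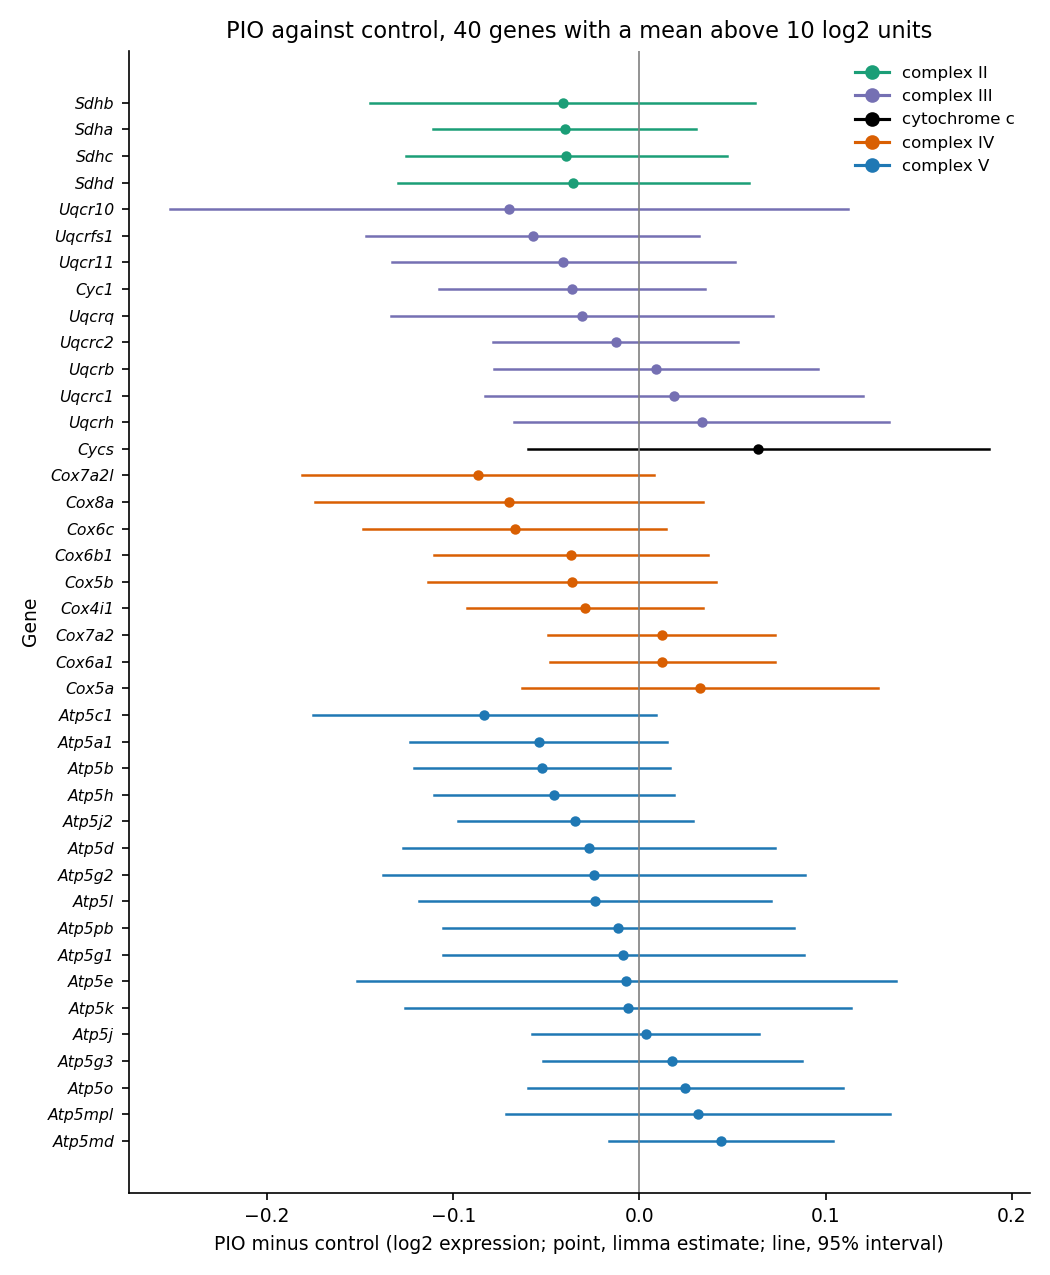
PIO minus control difference in log2 expression for the 40 genes with a mean above 10 log2 units, by complex, with the limma estimate as a point and its 95% interval as a line (8 PIO and 8 control animals). All 40 intervals include 0, and 28 of the 40 points lie below it.

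All 4 genes of complex II had lower PIO than control means, by 0.036 to 0.041 log2 units, and none passed the test. Sdha, the flavoprotein that oxidises succinate, had 12.84, 12.91 and 13.04 log2 units as the lowest, median and highest value in PIO animals, against 12.89, 12.95 and 13.00 in control animals. The highest Sdha value of all 16 was in a PIO animal, and 7 of 8 PIO values lay below the control median. The difference was -0.040 log2 units (SE 0.033, limma adjusted p = 0.830). Another bright Sdha probe set, averaging 12.52 log2 units, differed by -0.0072. Sdhb, the iron-sulphur subunit, ran from 12.72 through 12.86 to 13.00 log2 units with PIO and from 12.72 through 12.91 to 13.04 in controls, almost the same range, with a difference of -0.041 (SE 0.049). Sdhc, one of the membrane anchors, ran from 12.30 through 12.40 to 12.48 with PIO and from 12.31 through 12.39 to 12.52 in controls. Its mean was lower by 0.039 (SE 0.041), although its PIO median was the higher one. Sdhd, the other anchor, differed by -0.036 log2 units (SE 0.045), and a weaker probe set of the gene differed by 0.016.

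In complex III, 6 genes were lower and 3 higher with PIO, with a median difference of -0.031 log2 units and no call. That median ran from -0.053 without PIO animal 13 to -0.012 without control animal 6, and was -0.017 without PIO animal 9 and -0.019 without PIO animal 11. Uqcrfs1, the Rieske iron-sulphur protein, had 12.24, 12.30 and 12.39 log2 units as lowest, median and highest in PIO animals, against 12.27, 12.34 and 12.57 in control animals. Of the PIO values 3 lay below the lowest control, and 1 control animal stood above all others. The difference was -0.057 log2 units (SE 0.042, adjusted p = 0.802). Cyc1, cytochrome c1, which delivers electrons to cytochrome c, ran from 13.11 through 13.19 to 13.30 log2 units with PIO and from 13.14 through 13.21 to 13.27 in controls, and differed by -0.036 (SE 0.034, adjusted p = 0.857). Its highest value, as for Sdha, was in a PIO animal. Uqcr11, a small accessory subunit, ran from 12.65 through 12.74 to 12.85 with PIO and from 12.64 through 12.80 to 12.87 in controls, and differed by -0.041 log2 units (SE 0.043). Uqcrc1, a core protein on the matrix side, leaned the other way, with 12.55, 12.66 and 12.82 log2 units with PIO and 12.54, 12.63 and 12.77 in controls and a difference of 0.018 (SE 0.048). The other 5 genes, Uqcr10, Uqcrb, Uqcrc2, Uqcrh and Uqcrq, differed by -0.070 to 0.033 log2 units on the probe sets used. Second bright probe sets of Uqcrb and Uqcrh, averaging 12.47 and 13.18 log2 units, differed by 0.092 (SE 0.051) and -0.0099. The comparable probe sets of Uqcr10 and Uqcrc2 kept the same sign. Uqcr10 was the most variable gene of the complex, with a pooled SD within groups of 0.18 log2 units.

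Cycs, the mobile electron carrier cytochrome c, was the gene with the most positive difference among the 40 on the probe sets used. PIO animals had 13.96, 14.12 and 14.26 log2 units as lowest, median and highest value, against 13.77, 14.09 and 14.17 in control animals. The lowest value by far was in control animal 4, at 13.77 log2 units, and the next lowest control was animal 8, at 13.93. The difference was 0.064 log2 units (SE 0.059, adjusted p = 0.855), and it was 0.026 without control animal 4 and 0.042 without PIO animal 9. Its other bright probe sets, averaging 13.52 and 13.34 log2 units, differed by 0.029 and 0.019. A much weaker Cycs probe set, averaging 6.76 log2 units and not the one tested above, was lower with PIO, at -0.33 (SE 0.11). In a limma fit over all probe sets with 1 gene symbol its unadjusted p was 0.0063. The direction for Cycs therefore depended on the probe set.

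Complex IV had 14 tested genes, 7 lower and 7 higher with PIO, with a median difference of -0.0086 log2 units. This median had no stable sign. It was 0.0056 with no filter, 0.0022 with quantile normalization and 0.00044 without control animal 7, and it ran down to -0.018 without control animal 5. It was -0.016 without PIO animal 13, PIO animal 14 or control animal 2, -0.0041 without PIO animal 9, -0.0044 without control animal 4 and -0.0043 without control animal 8. Among the 9 above 10 log2 units, 6 were lower and 3 higher, with a median of -0.036. Cox7a2l, a factor that joins complex III to complex IV in supercomplexes, had 11.77, 11.92 and 11.93 log2 units as lowest, median and highest in PIO animals, against 11.82, 11.95 and 12.11 in control animals. All 8 PIO values lay below the control median, 3 of them below the lowest control. The difference was -0.087 log2 units (SE 0.045, adjusted p = 0.737), and its 3 comparable probe sets differed by -0.087 to -0.065. Cox6c, a small subunit of the inner membrane, ran from 14.10 through 14.19 to 14.32 with PIO and from 14.18 through 14.24 to 14.35 in controls, and differed by -0.067 (SE 0.039, adjusted p = 0.762). A second Cox6c probe set differed by 0.022 log2 units, so the direction depended on the probe set.

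Cox8a, the form of subunit 8 found in most tissues, ran from 12.42 through 12.49 to 12.66 log2 units with PIO and from 12.45 through 12.56 to 12.74 in controls, and differed by -0.070 (SE 0.049). Cox4i1, the regulatory subunit that binds ATP, ran from 14.86 through 14.93 to 14.98 with PIO and from 14.90 through 14.95 to 15.01 in controls, and differed by -0.029 (SE 0.030). Cox5a, which has a binding site for thyroid hormone T2, ran from 14.40 through 14.52 to 14.58 with PIO and from 14.29 through 14.51 to 14.60 in controls, a difference of 0.033 (SE 0.045). Both groups overlapped almost fully for Cox5a. Cox6a1 ran from 15.31 through 15.39 to 15.45 with PIO and from 15.34 through 15.38 to 15.44 in controls. Cox7a2 ran from 13.99 through 14.06 to 14.12 with PIO and from 13.97 through 14.06 to 14.10 in controls. Cox6a1 and Cox7a2, the forms in non-muscle tissue, each differed by 0.012 log2 units (SE 0.029 for both), and both had a second probe set with a negative difference. Cox5b and Cox6b1 differed by -0.036 and -0.037 log2 units.

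Complex V had 12 genes lower and 5 higher with PIO, with a median difference of -0.011 log2 units. The median was -0.0024 without PIO animal 11 and -0.0026 without control animal 8. It was -0.032 without PIO animal 13 or without control animal 5, -0.029 without control animal 1 and -0.028 without PIO animal 16. It was -0.024 without PIO animal 15 and -0.019 without PIO animal 14 or control animal 4. The alpha, beta and gamma subunits had the 3 most negative differences. Atp5c1, the gamma subunit that turns inside the head, had 13.79, 13.84 and 13.99 log2 units as lowest, median and highest in PIO animals, against 13.83, 13.93 and 14.09 in control animals. The upper PIO values lay within the control range and 2 fell below it. The difference was -0.083 log2 units (SE 0.044, adjusted p = 0.737). Atp5a1, the alpha subunit, ran from 14.28 through 14.36 to 14.44 with PIO and from 14.35 through 14.41 to 14.45 in controls, and differed by -0.054 (SE 0.033, adjusted p = 0.763). Atp5b, the catalytic beta subunit, ran from 14.76 through 14.83 to 14.97 with PIO and from 14.85 through 14.89 to 14.95 in controls, and differed by -0.052 (SE 0.033, adjusted p = 0.769). For Atp5b 5 of 8 PIO values lay below the lowest control, while 1 PIO value was the highest of all 16.

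The remaining complex V genes covered the ring, the stalks and the membrane part. Atp5g1, Atp5g2 and Atp5g3, which encode the same mature c subunit of the rotating ring, differed by -0.0087 (SE 0.046), -0.025 (SE 0.054) and 0.018 log2 units (SE 0.033). Their PIO values covered 12.09 to 12.33, 11.92 to 12.23 and 14.39 to 14.52 log2 units, against 12.06 to 12.36, 11.97 to 12.26 and 14.33 to 14.51 in controls, so the ranges nearly coincided for all 3. The 2 probe sets of Atp5h, subunit d of the peripheral stalk, differed by -0.046 and 0.013 log2 units, and those of Atp5o, the protein at the top of that stalk, by 0.025 and -0.087. Atp5pb, subunit b of the same stalk, differed by -0.011 log2 units (SE 0.045). Atp5d and Atp5e, the delta and epsilon subunits of the central stalk, differed by -0.027 (SE 0.047) and -0.0071 log2 units (SE 0.068). Atp5md, which stabilises dimers of the enzyme, was the most positive of the complex, with 13.59, 13.60 and 13.65 log2 units in PIO animals and 13.49, 13.57 and 13.65 in control animals. All 8 PIO values of Atp5md lay above the control median, within a narrow band inside the control range, and the difference was 0.044 (SE 0.028, adjusted p = 0.786). Atp5j, Atp5j2, Atp5k, Atp5l and Atp5mpl differed by -0.034 to 0.031 log2 units. Atpif1, the inhibitor of the enzyme, is outside the symbol rule and differed by 0.034 log2 units (SE 0.060, adjusted p = 0.928).

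**Figure D2:**
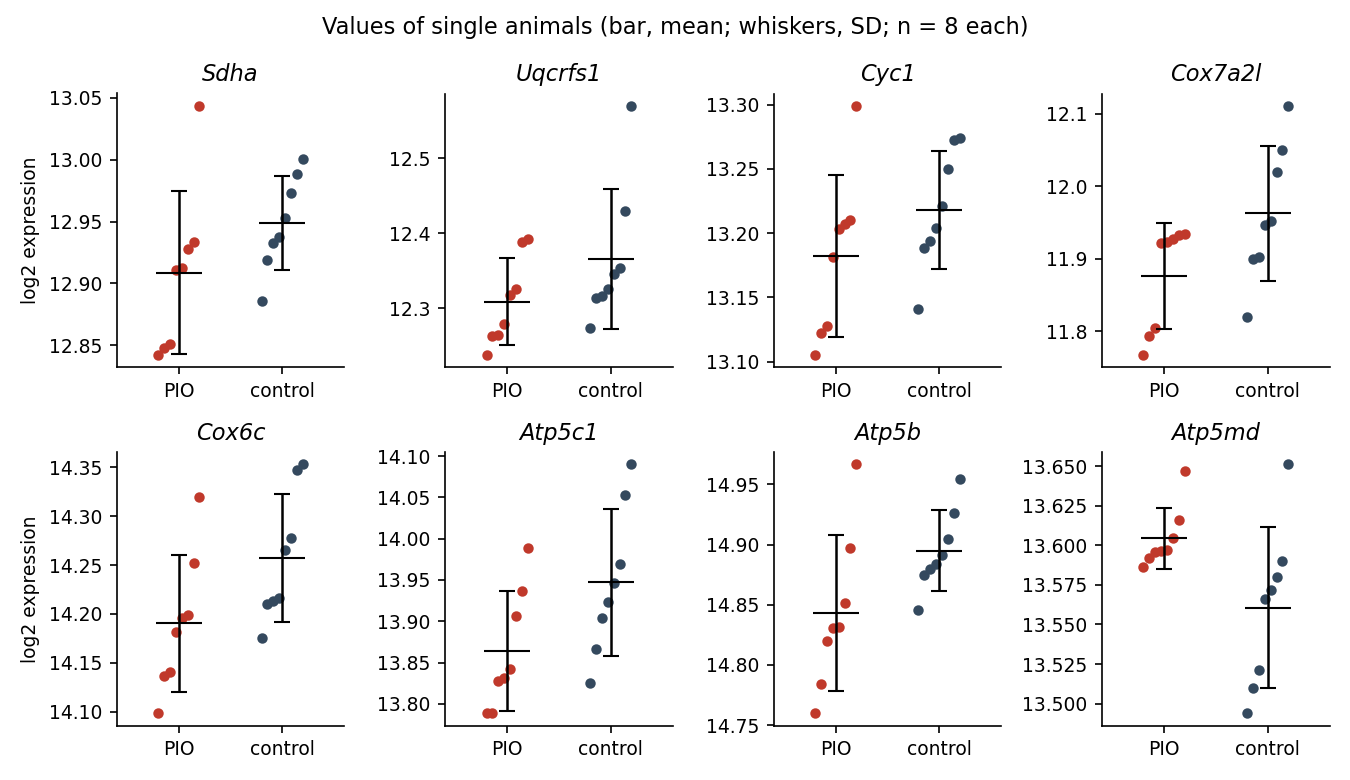
Log2 expression in single animals for 8 genes, with PIO left of control, a bar at the mean and whiskers of 1 SD (n = 8 each); each panel has its own axis, which does not start at 0. The groups overlap in every panel, and in Sdha, Cyc1 and Atp5b the highest value belongs to a PIO animal.

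The labels also give each array a number and a code in its description, neither with a stated meaning, and the code was read as a batch. In the largest batch, with 6 PIO and 5 control animals, the median differences were -0.0047 log2 units for complex II, -0.0076 for complex III, -0.00073 for complex IV and -0.0067 for complex V, and Cycs differed by -0.0054. All 5 values lay closer to 0 than those over all 16 animals. With the batch code as a block they were -0.037, -0.026, -0.0046 and -0.016 log2 units, with Cycs at 0.052. The other 2 batches held 1 PIO and 2 control animals and 1 of each, too few for a value.

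With the myelin marker mean as a covariate, several of the lower PIO means lay closer to the control means. Cox7a2l differed by -0.032 log2 units (SE 0.047), Cox6c by -0.024 (SE 0.042), Uqcrfs1 by -0.014 (SE 0.047), Sdhc by -0.016 (SE 0.048) and Atp5h by -0.014 (SE 0.033). Atp5a1, Atp5b and Atp5c1 differed by -0.032 (SE 0.038), -0.024 (SE 0.037) and -0.056 (SE 0.051). Others moved the opposite way or little, with Atp5d at -0.053 (SE 0.055), Cyc1 at -0.048 (SE 0.040) and Sdha at -0.035 (SE 0.040). The median difference in that fit was -0.025 log2 units for complex II and -0.017 for complex III, each smaller in size than without the covariate. It was -0.013 for complex IV and -0.014 for complex V, each larger in size than without it. With the striatal mean Cox6c differed by -0.038, Cox6a2 by -0.13 and Atp5b by -0.034 log2 units. With the choroid mean Sdha and Sdhb differed by -0.024 and -0.025, while Sdhc differed by -0.048 and the complex IV median was -0.029. With the neuron mean the medians of complexes II, III, IV and V were -0.033, -0.024, -0.0056 and -0.018 log2 units. Cox7a2l differed by -0.085 (SE 0.046) and Atp5c1 by -0.079 (SE 0.045) in the neuron fit. No gene of complexes II to V was called in any of these fits.

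The SD between single animals was larger than the mean difference between diets, which is a description and not a test of that difference. For each complex, the mean over its genes above 10 log2 units was taken in each animal relative to the mean of all 16. Among these brighter genes, PIO animal 13 was the highest and PIO animal 11 the lowest PIO animal in complexes II, III, IV and V, and control animal 5 was the lowest control in all 4. The level matters for complex IV alone, since all tested genes of the other complexes lie above it. Over all 14 tested complex IV genes, with Cox8b and Cox6b2 among them, PIO animal 13 was the lowest PIO animal at -0.24 and PIO animal 11 was at 0.16, and control animal 4 was the lowest control at -0.30. For complex II the PIO animals ran from -0.098 through a median of -0.016 to 0.090, and the control animals from -0.089 through 0.046 to 0.086. For complex III they ran from -0.085 through -0.024 to 0.11 with PIO and from -0.086 through 0.037 to 0.057 in controls. For complex IV the PIO range was -0.063 to 0.056 and the control range -0.053 to 0.074. For complex V the PIO range was -0.063 to 0.082 and the control range -0.066 to 0.065. The 4 complexes share no gene, but within an animal they share the RNA, the array and its normalization.

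Cytochrome c, a single gene, did not follow the means of the complexes in these animals. Relative to its mean over all arrays, Cycs was at -0.11 log2 units in PIO animal 13, where the 4 complexes were highest among PIO animals, and at -0.30 in control animal 4, where complexes II and IV were highest among controls. It was at 0.068 in PIO animal 11 and 0.059 in control animal 5, where the 4 complexes were lowest in their groups. Single genes within the complexes also departed from the means, so this was not particular to cytochrome c. Cox5a, Uqcrc2 and Atp5pb had their lowest value of all 16 in control animal 4, at 14.29, 14.18 and 14.56 log2 units. Others, among them Sdhb at 13.04 log2 units, had their highest value there. The complex I list, 43 tested genes with the prefix Nduf that include assembly factors, was also highest in PIO animal 13, at 12.25 log2 units. Its lowest values were in PIO animal 10, at 12.11, and, among controls, in animal 1, at 12.14. The pooled SD between animals of the mean of each complex was 0.059 log2 units for complex II, 0.059 for complex III, 0.039 for complex IV and 0.046 for complex V, in each case above the size of the mean difference between diets (-0.039, -0.021, -0.030 and -0.015). Over all 14 tested complex IV genes the SD was 0.19 log2 units and the mean difference 0.045, of the opposite sign.

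**Figure D3:**
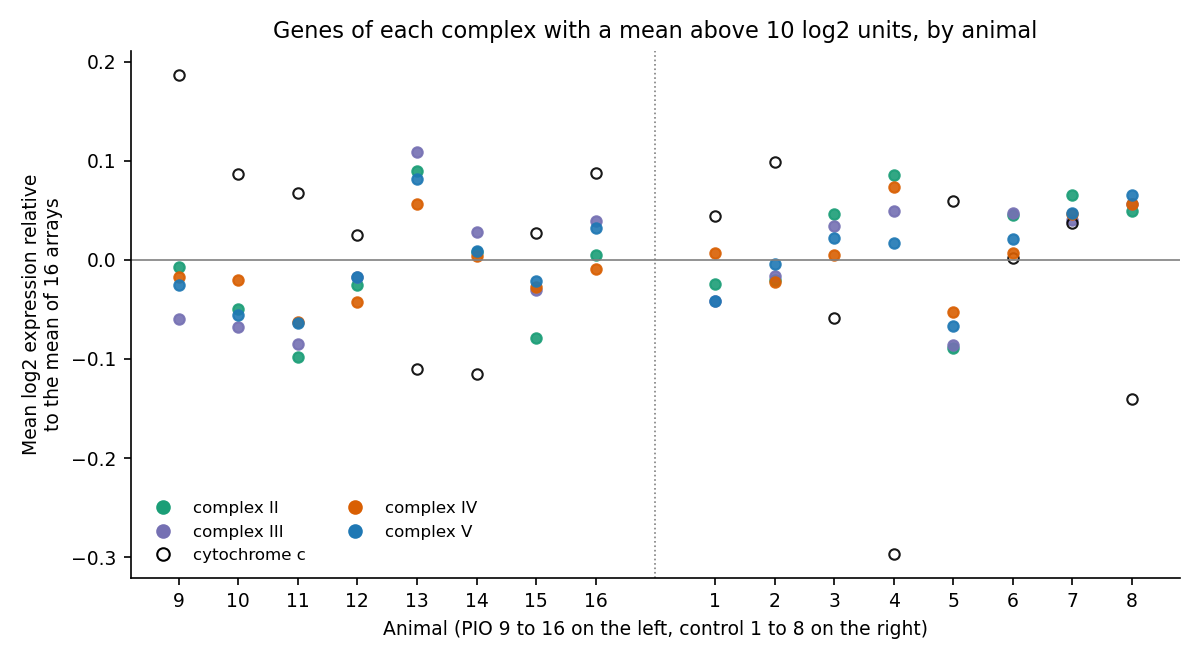
Mean log2 expression of the genes above 10 log2 units in each complex, relative to the mean of 16 arrays, by animal, with PIO animals 9 to 16 on the left and control animals 1 to 8 on the right. Complexes II to V are all high in PIO 13 and all low in PIO 11 and control 5. In control 4 they run from 0.017 for complex V to 0.086 for complex II. Cytochrome c (open circles) is at -0.11 in PIO 13 and -0.30 in control 4.

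The spread between animals was small for most of these genes on the log2 scale, and over all genes tested the median SD was 0.15 near 4 log2 units, 0.22 near 5 and 6, and lower at each higher level down to 0.066 near 15. The pooled SD within groups had a median of 0.079 log2 units over the 40 genes above 10 log2 units, against 0.10 over all 4783 genes above that level, and 35 of the 40 lay below that median. Above 13 log2 units the medians were 0.057 for 24 genes of these complexes and 0.077 for 610 genes in all. Set against genes within the same 1 log2 unit of level, 24 of the 40 lay below the median SD, 10 below the 10th percentile and 1 above the 90th percentile. Bright probe sets can approach saturation, which compresses differences, and its part was not tested. The smallest spreads were those of Atp5md, Cox6a1 and Cox7a2, each at 0.039 log2 units. The SD was larger in PIO than in control animals in 19 of the 45 tested genes, against 59.0% of all genes tested. Atp5md was an example of the narrower PIO group, with an SD of 0.019 log2 units with PIO and 0.051 in controls.

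**Figure D4:**
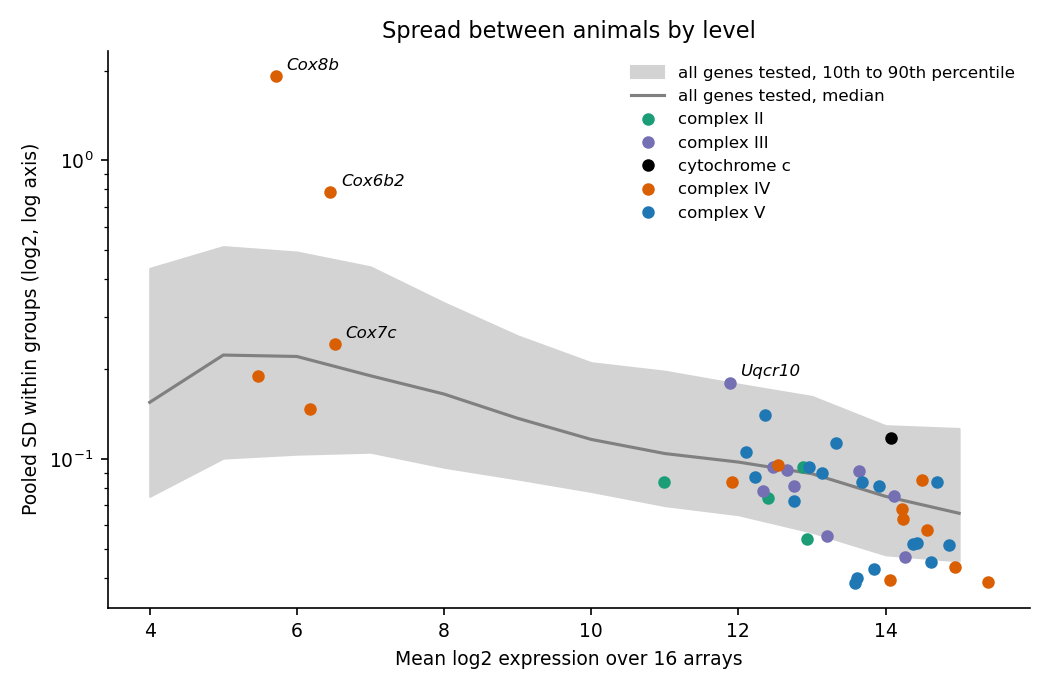
Pooled SD within groups (log2 units, log axis) against mean log2 expression over 16 arrays for the 45 tested genes, with the median (line) and the 10th to 90th percentile (band) of all genes tested. Of the 40 genes above 10 log2 units 24 lie below the median of their level, and Cox8b and Cox6b2 lie far above the band.

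The widest spreads were those of Cox8b and Cox6b2, complex IV isoforms known from other tissues, followed by Cox7c with a pooled SD of 0.24 log2 units. Cox8b, the form of subunit 8 in heart, skeletal muscle and brown fat of rodents, had 2.71, 6.48 and 7.72 log2 units as lowest, median and highest in PIO animals, against 2.69, 5.27 and 7.86 in control animals. Its pooled SD of 1.92 log2 units was at the 99.8th percentile of all genes tested, and the diet difference was 0.55 (SE 0.88, adjusted p = 0.918). Cox6b2, the testis form of subunit 6b, ran from 5.07 through 6.79 to 7.42 log2 units with PIO and from 5.45 through 6.31 to 7.35 in controls, with an SD at the 98.7th percentile and a difference of 0.21 (SE 0.36). Both were split in the same way in both diets. In the 10 animals with high choroid plexus markers Cox8b was at 5.91 to 7.86 and Cox6b2 at 6.15 to 7.42 log2 units. In the 6 animals with low ones they were at 2.69 to 4.04 and 5.07 to 5.99 log2 units. Over the 6 animals the mean of Cox8b lay under the filter at 3.584 log2 units, with 2 of the 6 values below it, so it passed the filter through the 10 animals, and its split and SD set values near the floor against higher ones. No other gene of the 45 was separated by that split, which separated 0.913% of all genes tested.

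With the choroid marker mean as a covariate the diet differences of Cox8b and Cox6b2 were -0.38 log2 units (SE 0.20, adjusted p = 0.769) and -0.13 (SE 0.19), so both changed sign. The choroid list itself had 10 of 10 measured markers higher with PIO, by a median of 1.12 log2 units, with none at an unadjusted p under 0.05. Cox6a2, the form of subunit 6a in heart and skeletal muscle, ran from 6.01 through 6.13 to 6.45 log2 units with PIO and from 6.08 through 6.12 to 6.49 in controls. Its highest PIO value was in animal 14, which also had the highest mean of 4 striated muscle markers, 8.78 log2 units. The other 4 markers of that list, Ckm, Myh6, Tnni3 and Mb, lay below the filter, and the 4 measured split into 2 higher and 2 lower with PIO. PIO animal 15 was next on that list at 8.57 log2 units with Cox6a2 at 6.12, and the highest Cox6a2 value was in control animal 7. Cox7a1, the muscle form of subunit 7a, ran from 5.30 through 5.53 to 5.73 with PIO and from 5.24 through 5.40 to 5.80 in controls. Cox7c, a subunit common to most tissues, was at 6.31 to 6.94 log2 units with PIO and 5.89 to 6.73 in controls on the probe set used here, with a difference of 0.13 (SE 0.11) and a pooled SD of 0.24. Both Cox7c probe sets were weak, averaging 6.52 and 5.94 log2 units. The complex IV genes above 10 log2 units averaged from 11.92 (Cox7a2l) to 15.39 (Cox6a1). Whether the Cox7c probe sets read its main transcript was not tested.

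**Figure D5:**
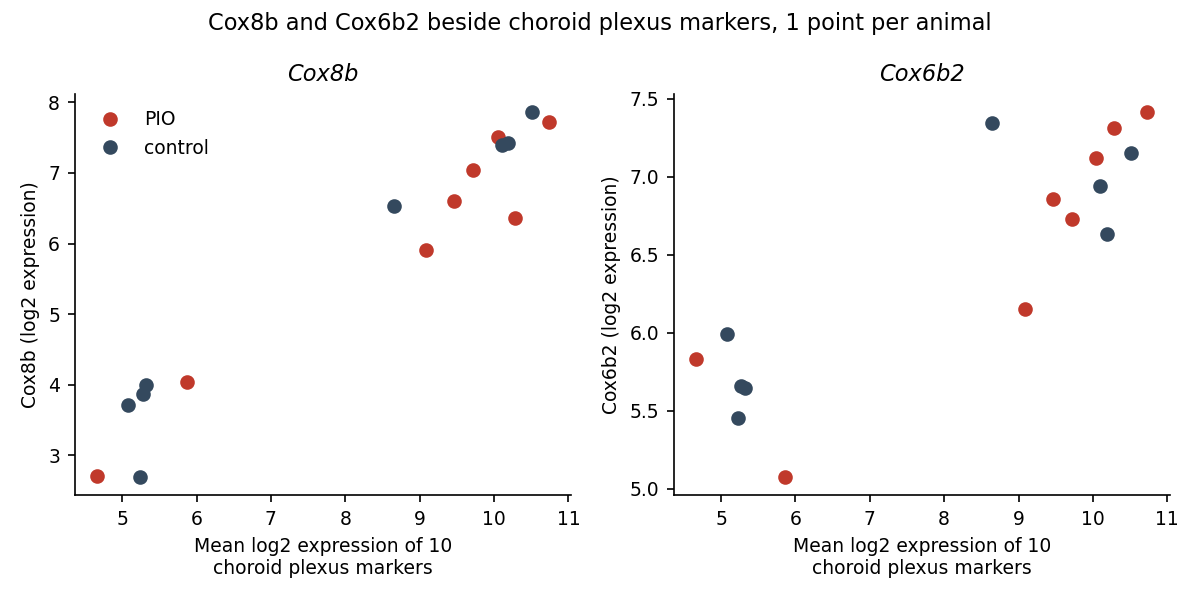
Log2 expression of Cox8b (left) and Cox6b2 (right) against the mean of 10 choroid plexus markers, 1 point per animal, PIO in red and control in dark blue. In both panels 6 PIO and 4 control animals lie at the upper right and 2 PIO and 4 control animals at the lower left, with no overlap on either axis.

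The array numbers fell into a range of 1 to 6 and a range of 10 to 24, which were compared with the diet as a second term. The higher range held 6 PIO and 4 control animals and the lower one 2 PIO and 4 control animals. At an adjusted p of 0.05 in limma, 0.00815% of all genes (1 gene) were higher and 0% were lower in arrays 10 to 24, and 0 of the 45 genes were called. At an unadjusted p under 0.05, 4.48% of all genes were higher and 5.71% lower. Of the genes of complexes II to V 4 were higher at that level and 0 lower. Counted in both directions, 1 gene stood at that level without control animal 1, 6 or 7, without PIO animal 10 or 16 and with a common median. There were 2 without PIO animal 9, 12, 13 or 14 and without probe sets of shared sequence, and 5 without control animal 5. Atp5d stood out with 0.13 log2 units (SE 0.039, unadjusted p = 0.0034, adjusted p = 0.257). Atp5e differed by 0.15 (SE 0.065), Uqcrq by 0.10 (SE 0.047) and Cox7c, on its weak probe set, by 0.24 log2 units (SE 0.11). In Atp5d the PIO animals of the lower range, 9 and 10, were the lowest of all 16, at 12.98 log2 units each. The lowest p among genes that were lower in arrays 10 to 24 belonged to Atp5h, Sdhd and Atp5pb, with differences of -0.044, -0.058 and -0.053 log2 units and adjusted p of 0.647, 0.695 and 0.728. Of the 45 genes 32 had a positive difference, against 50.8% of all genes.

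Other mitochondrial genes were read from lists beside these. No gene of any list passed an adjusted p of 0.05. Of 43 complex I list genes 14 were higher and 29 lower with PIO, with a median difference of -0.016 log2 units. At an unadjusted p under 0.05, Ndufaf6, an assembly factor, was higher by 0.15 log2 units (SE 0.059) and Ndufv1, a subunit that binds NADH, was lower, at -0.094 (SE 0.040). Of 28 assembly factors of complexes II to V 16 were higher and 12 lower, with a median of 0.0090. Among them Coa6 and Cox20, both needed to build complex IV, differed by 0.11 (SE 0.048) and 0.12 (SE 0.058) at an unadjusted p under 0.05. Of 15 genes of the tricarboxylic acid cycle 5 were higher and 10 lower, with a median of -0.033. Idh3g, a subunit of isocitrate dehydrogenase, had the smallest p of these, with a difference of -0.082 (SE 0.043), followed by Ogdh at -0.068 (SE 0.043).

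Of 12 regulators of mitochondrial biogenesis 9 were higher and 3 lower with PIO, with a median difference of 0.044 log2 units. Yy1, a transcription factor of many promoters, differed by 0.092 (SE 0.036, unadjusted p = 0.022, adjusted p = 0.681), and Pprc1, a coactivator of the PGC-1 family, by 0.078 (SE 0.059). Of 12 carriers and membrane organisers 3 were higher and 9 lower, with a median of -0.031. Opa1, which fuses and shapes the inner membrane, differed by -0.068 (SE 0.038), and Slc25a3, the phosphate carrier that supplies ATP synthase, by -0.054 (SE 0.037).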

How the data were processed

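The deposited values were 1 number per probe set and array, log2 expression per the values themselves; per the submitters' processing notes the tools included R 2.7.1, GCRMA and MAS5, without saying which of them made the values. Scanner files were not used here. Of 45101 probe sets, 64 controls were left out, and 34945 had 1 gene symbol, 932 several and 9160 none in the platform annotation, whose 48 member symbols all matched RefSeq. The 96 probe sets of these genes gave 48 genes. The values were taken as normalized between arrays, with medians of 5.65 to 5.76 log2 units and pairwise correlations of 0.979 to 0.996, and no pseudocount was added.

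Genes were kept where the mean over 16 arrays passed the 40th percentile (3.584 log2 units) and read from the probe set with the highest mean, leaving 12266. Diet was tested with limma 3.58.1 in R 4.3.3, lmFit and eBayes, with Benjamini-Hochberg adjustment over these genes at a threshold of 0.05, and the fit was tested on simulated data. A positive log2 difference means higher with PIO, and its SE is the moderated one. Each array is of a separately numbered animal, and limma p-values weigh a difference against the spread between these animals, moderated over all genes. Precision is limited by how many arrays there are. Of 24 genes with several probe sets within 4 log2 units of the highest, 17 had differences of 1 sign over these probe sets. The members and lists were chosen with earlier results of these data known. The genes described singly are the 3 genes of each complex with the smallest p, core subunits, c subunits, tissue isoforms, the widest and narrowest spreads, the 3 higher and 3 lower genes by array number, and up to 2 genes of each list. Promoters and start sites are from RefSeq. Protein sequences were not used here. Other settings tried were the filter, the probe set choice, the normalization, batch, array range, marker covariates, the variance prior, array weights, a plain two-sample test and each animal left out in turn.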

Additional observations from a re-analysis of the deposited data

Results flagged for a closer look

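Among 72 groups of 8 animals tested for a single distant value, 3 held one, where chance gives about 1 in 20. Sdha was at 13.04 log2 units in PIO animal 13, with the other PIO animals at 12.84 to 12.93. Cox7a2 was at 13.97 log2 units in control animal 5, with the other controls at 14.04 to 14.1. Cox6a2 was at 6.45 log2 units in PIO animal 14, with the other PIO animals at 6.014 to 6.167. In the mean of the 40 genes above 10 log2 units, PIO animal 13 was the highest of all 16 and control animal 5 the lowest control. In the mean over all 45 tested genes, PIO animal 13 was at -0.015 relative to the mean of 16 arrays, and control animal 5 was at -0.12.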

How the results depend on the processing

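Over 35 other settings, 0 genes of complexes II to V were called at an adjusted p of 0.05, the lowest adjusted p being 0.531, with a median difference of -0.037 to -0.0054 log2 units. Between 26 and 32 genes were lower with PIO where all 45 were tested, 30 of 48 with no filter, 28 of 40 with the stricter filter and 22 of 35 without probe sets of shared sequence. In 3 settings a gene of the 45 had an unadjusted p under 0.05: without control animal 5 (Cox7a2l and Atp5c1), without PIO animal 13 (Cox6c, Atp5b and Atp5c1) and in a plain two-sample test (Atp5md). With every probe set fitted on its own, each gene was still read from its chosen probe set. The weaker Cycs probe set, at -0.33 log2 units, was therefore not among those counted. No paired analysis was possible because the animals carry separate numbers in the 2 groups. The number of genes called by array number, 1 of 12266 with all arrays, was 0 without probe sets of shared sequence, 2 with quantile normalization, 0 with a common median and 7 with array weights, and 0 to 3 with 1 animal left out; the cause was not tested.

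Some differences changed sign, with values on the log2 scale. They were 0.0014 for Atp5g1 and 0.0019 for Atp5pb with array range as a block, 0.0032 for Atp5e and 0.0011 for Atp5g2 with array weights, and 0.0036 for Atp5e with batch as a block. In arrays 10 to 24 alone they were 0.014 for Atp5e, 0.0073 for Atp5g1, -0.0069 for Cox7c and 0.0084 for Sdhd. In the largest batch alone they were 0.026 for Atp5g1, 0.014 for Atp5g2, -0.017 for Cox5a, -0.0054 for Cycs and 0.012 for Sdhb. With the median over probe sets they were 0.032 for Atp5g1, 0.044 for Atp5g2 and -0.016 for Cox6a1, and without probe sets of shared sequence 0.073 for Atp5g1, 0.013 for Atp5h and -0.0095 for Cox7a2. With the myelin mean as a covariate they were 0.047 for Atp5g1, 0.026 for Atp5pb, -0.0026 for Cox6a1 and 0.020 for Sdhd, with the striatal mean 0.034 for Atp5g1, 0.010 for Atp5pb and 0.0036 for Sdhd, and with the choroid mean -0.13 for Cox6b2 and -0.38 for Cox8b. Quantile normalization gave 0.0033 for Atp5pb. Without PIO animals 14 and 15, a choice made after seeing the data, they were 0.010 for Atp5g1 and 0.015 for Atp5pb. With 1 animal left out they ran from -0.0022 to 0.036 for Uqcrc1, from -0.032 to 0.011 for Atp5g1, from -0.033 to 0.025 for Atp5e and from -0.032 to 0.0046 for Atp5pb. The NRF1 core count was 8 genes, and 7 with the longer core.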
